A study of Mus musculus with 7899 samples.

Results

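β cells from mouse pancreas at day 5.5 of gestation, labelled G5.5, were compared with β cells of the group labelled G0. The members are cells, chosen by group label alone: 166 G5.5 cells in 2 replicates, with 85 and 81 cells, and G0 cells in 2 replicates, with 72 and 35 cells. These 273 cells belong to a time course of 3481 cells, 35 libraries and 16 groups through gestation and after delivery, within a series of 7897 single cells. All these mice were female C57BL/6J on a standard diet, and no genotype, transgene or drug treatment is given for them. Whether G0 stands for mice that were never mated or for the day of mating is not spelled out in the labels, nor is the number of mice per replicate. Islets were released from the pancreas with collagenase P, hand-picked and dissociated, and single cells were sorted into plates; the sources used here do not name the sort markers. Libraries were made from each cell by Smart-seq3xpress, which reads full-length transcripts in plates, and the reads of all cells of a replicate were summed into 1 library.

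In rodents the β-cell mass grows during pregnancy, and the cells secrete more insulin at a given glucose level, driven largely by prolactin and placental lactogens acting through the prolactin receptor. Serine is made from a glycolytic intermediate by Phgdh, Psat1 and Psph, and mitochondrial Shmt2 and Mthfd2 pass its carbon to folate. Amino acid shortage and ER stress both act through kinases of the translation factor eIF2α and the transcription factor ATF4, which binds amino acid response elements near genes for amino acid synthesis, transport and tRNA charging. Lpl is the lipase that frees fatty acids from circulating triglyceride, and Acly makes cytosolic acetyl-CoA from citrate for lipid synthesis and acetylation.

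The 4 libraries held 25623339 to 92366773 reads, the lowest in G0 replicate 2, with median depths of 748051 to 1125228 reads and 6849 to 7365 detected genes per cell. Insulin reads made up 58.6% and 60.3% of the G0 libraries and 56.5% and 56.1% of those at G5.5, and the 9 β-cell markers together reached 609500 to 643400 CPM (reads scaled to the size of the library) in each library. The α-cell markers summed to 1596 and 3161 CPM at G0 and to 3974 and 4899 CPM at G5.5; 7 of 9 had a positive difference, none passed the test by edgeR, 3 had an unadjusted p under 0.05 and DESeq2 called 1. The δ-cell markers summed to 776 and 264 CPM at G0 and 272 and 273 CPM at G5.5. Markers of acinar, endothelial, stromal and red blood cells stayed under 9 CPM in sum, and immune markers ran from 31.6 to 60.2 CPM with Ptprc, Cd74, C1qb, Lyz2 and Tyrobp at 0. The part of other cell types and of depth in the differences below was not tested.

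Of 15373 genes tested, 242 (1.57%) passed the test between G5.5 and G0 (edgeR quasi-likelihood, adjusted p under 0.05): 91 of them (0.592% of genes tested) were lower at G5.5 and the others (0.982%) higher. The median log2 fold change was 0.83 among the higher and -0.85 among the lower genes, against 0.00 over all genes tested; 53 genes were at least 2-fold higher and 31 at least 2-fold lower. The replicates of the groups did not overlap for any of the 242 genes, nor for 39.1% of all genes tested. Both G5.5 libraries lay above all 33 other libraries of the time course for 20 of the higher genes and below all 33 for 15 of the lower genes; of all genes tested, 0.774% and 0.514% did so, and the called genes were picked for their difference from G0. With limma on the mean log2 of the deposited length-scaled values, 57 genes were called higher and 417 lower. This setting gives every cell the same weight, but it also takes logs per cell, leaves insulin out of the scaling and uses another test. The split of the calls turned from 62.4% to 12% higher, while the median over all genes moved by -0.03. Which of these changes moved the split was not tested. Without G0 replicate 2, the library with the fewest cells and reads, 40 genes were called; without G5.5 replicate 1 there were 76 and without G5.5 replicate 2 there were 56. Of the 242 genes, 17 remained called whichever of the 4 libraries was left out, among them Phgdh, Lpl, Hadh, G6pc2, Rims3, Slc2a13 and Tmem59l.

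**Figure D1:**
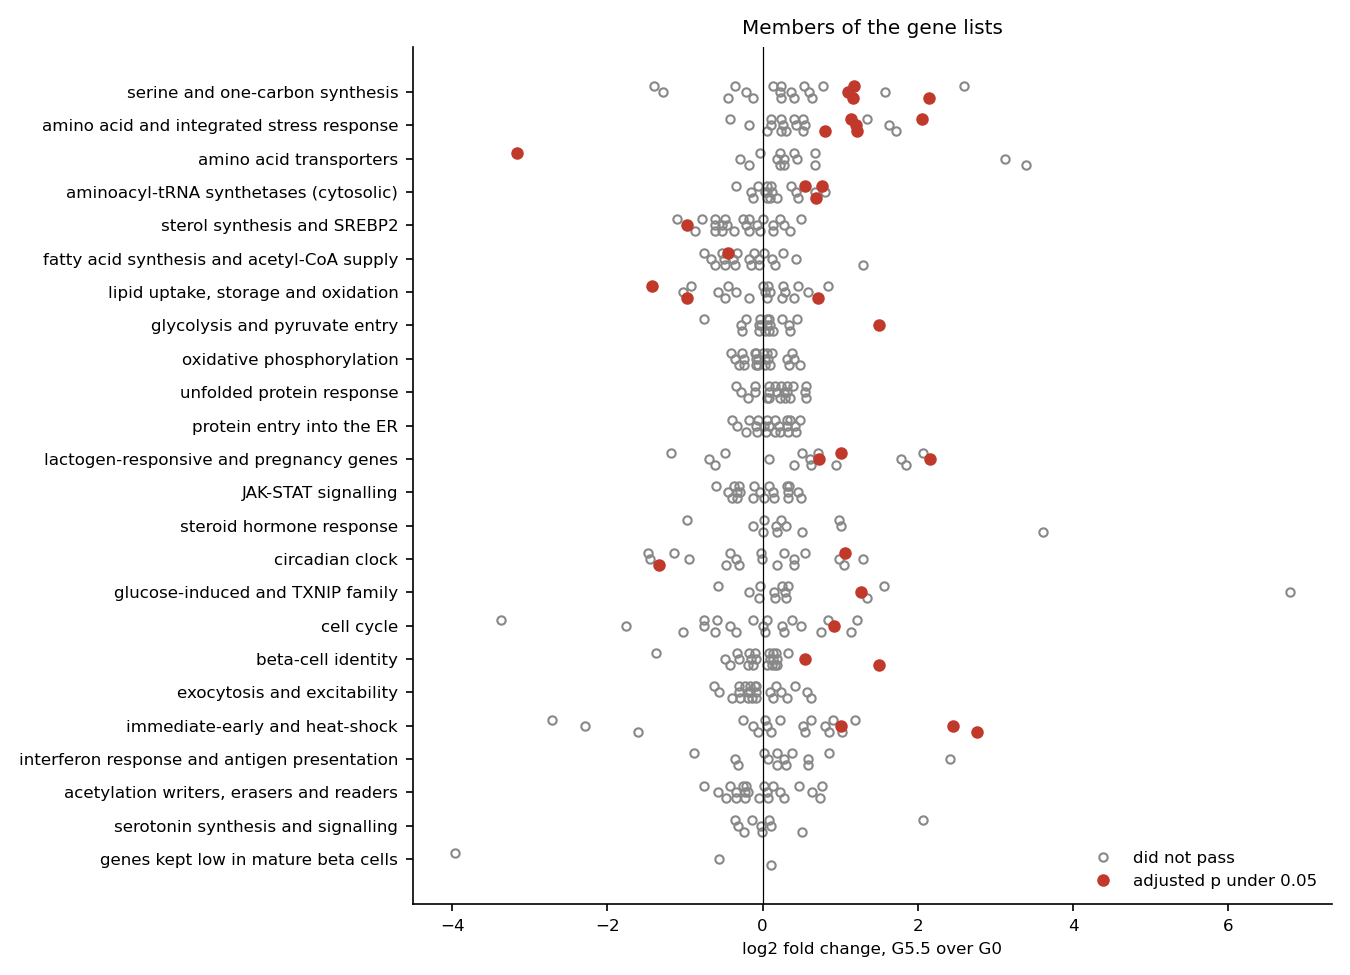
Log2 fold changes (horizontal axis) of the members of 24 gene lists between G5.5 and G0; filled red points passed the edgeR test at an adjusted p under 0.05. The 459 of 515 tested entries with a mean of at least 1 CPM are drawn. The filled points of the serine and integrated stress response lists lie to the right of 0, that of the fatty acid synthesis list to the left.

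Serine synthesis and its one-carbon branch held 4 called genes of 25 tested, each higher at G5.5, against 1.57% called over all genes tested. The median of the list was 0.37, against 0.00 over all genes tested. Phgdh (ENSMUSG00000053398, chromosome 3, 98313170 to 98339990, minus strand, GRCm38), the first enzyme of the pathway, measured 9.36 and 7.58 CPM at G0 and 36.6 and 38.95 CPM at G5.5. It rose by 2.15 on the log2 scale (SE 0.26, edgeR adjusted p = 1.99e-05). No other library of the time course reached either G5.5 value; the nearest group was G12.5, with 27.4 and 36.2 CPM. Psph, the phosphatase of the last step, measured 8.27 and 10.6 CPM at G0 and 19.9 and 22.6 CPM at G5.5 (1.18, SE 0.26, adjusted p = 0.0181), again above all 33 other libraries. Shmt2, which splits serine to glycine in mitochondria, went from 9.76 and 10.9 to 24.1 and 22.5 CPM (1.17, SE 0.23, adjusted p = 0.00679); the gene Ndufa4l2 overlaps it on the other strand, and the strand used in counting was not stated in the labels. Mthfd2, the mitochondrial folate enzyme after it, went from 50.1 and 38.6 to 94.9 and 95.1 CPM (1.10, SE 0.27, adjusted p = 0.0343).

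The other steps of the same pathway did not pass. Psat1, the transaminase between Phgdh and Psph, measured 6.54 and 1.08 CPM at G0 and 13.5 and 10.1 CPM at G5.5 and did not pass the test (1.58, adjusted p = 0.109). The cytosolic enzymes Shmt1 and Mthfd1 differed by 0.42 and -0.13 without passing. Among the 21 members that did not pass, 8 had negative differences. The call on Phgdh held without any one of the 4 libraries, with adjusted p from 0.000272 to 0.00714. That on Psph was lost whichever was left out, with adjusted p from 0.0519 to 0.136. That on Shmt2 was lost without G0 replicate 1 (0.0506), G0 replicate 2 (0.0637) and G5.5 replicate 1 (0.0531), and that on Mthfd2 without G0 replicate 2 (0.336), G5.5 replicate 1 (0.125) and G5.5 replicate 2 (0.162).

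The list of amino acid and integrated stress response genes was compiled from genes known to follow ATF4. It held 5 called genes of 24 tested, each higher at G5.5, against 1.57% called over all genes tested. The list median was 0.52, and 22 of 24 differences were positive, against 48.4% over all genes tested. Eif4ebp1, which encodes the translation repressor 4E-BP1, measured 17.1 and 12.9 CPM at G0 and 61.4 and 64.3 CPM at G5.5. Its rise of 2.06 (SE 0.34, adjusted p = 0.00152) was the largest of the called members of this list. Asns, asparagine synthetase, went from 77.4 and 68.7 to 134.4 and 121.9 CPM (0.81, SE 0.18, adjusted p = 0.0185). Pycr1, the last enzyme of proline synthesis, went from 16.9 and 20.4 to 46.6 and 35.5 CPM (1.14, SE 0.24, adjusted p = 0.0109). Nupr1, a small stress-induced chromatin protein, went from 65.8 and 59.9 to 121.3 and 168 CPM (1.20, SE 0.28, adjusted p = 0.0241). Gpt2, the mitochondrial alanine transaminase, rose from 2.84 and 3.00 to 8.43 and 5.03 CPM (1.21, SE 0.31, adjusted p = 0.0367). The replicates did not overlap for these 5 genes, which held for all 242 called genes and for 39.1% of all genes tested.

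Atf4 itself measured 169 and 152.6 CPM at G0 and 203 and 176 CPM at G5.5 and did not pass (0.24, adjusted p = 0.602). Chac1 and Trib3, which are strongly induced by ATF4, differed by 1.63 (adjusted p = 0.200) and 1.72 (adjusted p = 0.249), and Ddit3, the CHOP factor of ER stress, by 0.11 (adjusted p = 0.917). The 5 calls were sensitive to single libraries. Eif4ebp1 was lost only without G0 replicate 2 (adjusted p = 0.0629). Without that library Asns, Pycr1, Nupr1 and Gpt2 were lost too, with adjusted p from 0.0650 to 0.222. Without G0 replicate 1, Pycr1, Nupr1 and Gpt2 were lost (0.0645 to 0.123), without G5.5 replicate 1, Asns, Pycr1 and Gpt2 (0.121 to 0.365), and without G5.5 replicate 2, Asns and Nupr1 (0.0666 and 0.227).

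**Figure D2:**
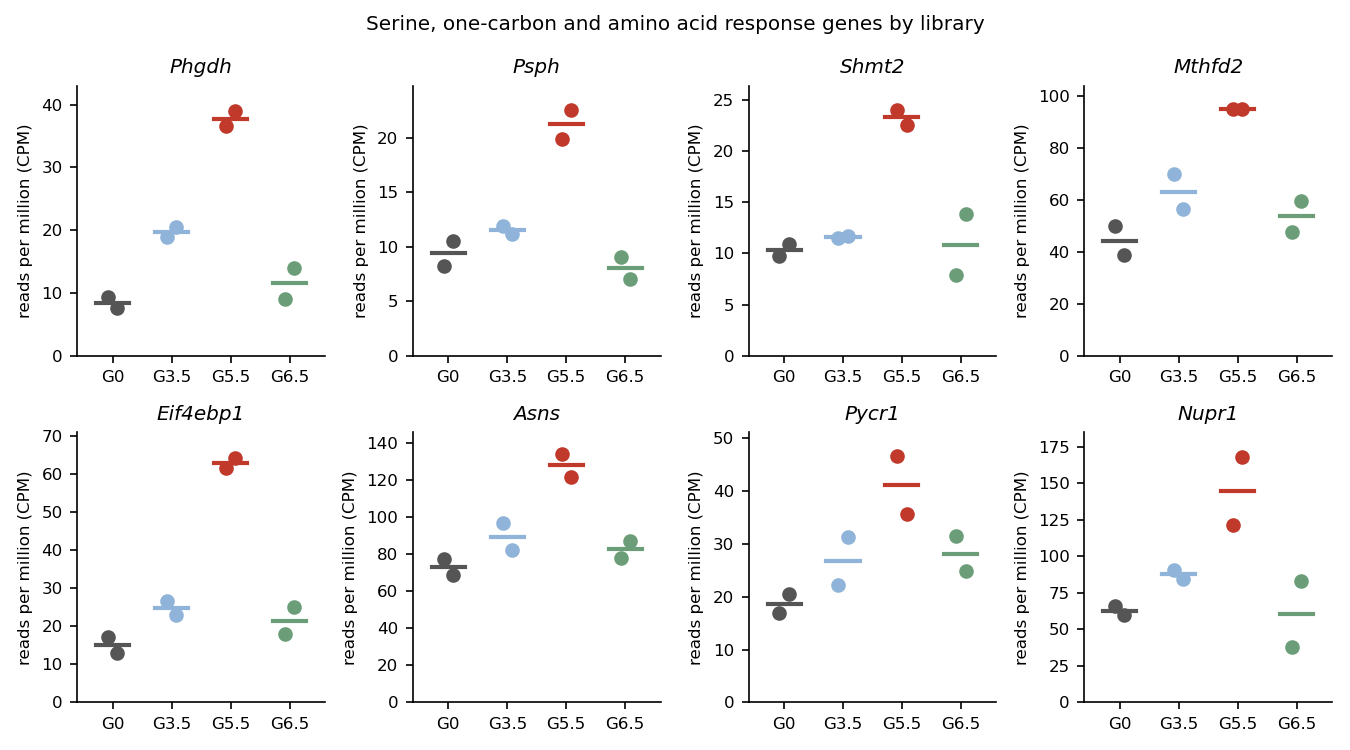
CPM (vertical axis) of 8 serine, one-carbon and amino acid response genes in each library of G0, G3.5, G5.5 and G6.5; points are libraries and bars are group means. For Phgdh, Psph, Shmt2, Mthfd2, Eif4ebp1, Asns, Pycr1 and Nupr1 both G5.5 points lie above the G0, G3.5 and G6.5 points. Groups after G6.5 are not drawn. Of the 33 other libraries of the course, 20 for Nupr1 and 19 for Pycr1 lay above both G5.5 values.

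Because these genes are known for ATF4 binding near their start, the promoters of members called at G5.5 were read from RefSeq (GRCm38.p6, from 250 bases before to 50 bases after the annotated start). The amino acid response element searched was TGATGNAAN, on both strands. Capitals mark the matches in the promoters of Asns (chr6:7693160-7693459, minus strand), Nupr1 (chr7:126625421-126625720, minus strand), Pycr1 (chr11:120643699-120643998, minus strand) and Aars (chr8:111033592-111033891, plus strand), which are shown 5′ to 3′ on the strand of the gene.
Asns: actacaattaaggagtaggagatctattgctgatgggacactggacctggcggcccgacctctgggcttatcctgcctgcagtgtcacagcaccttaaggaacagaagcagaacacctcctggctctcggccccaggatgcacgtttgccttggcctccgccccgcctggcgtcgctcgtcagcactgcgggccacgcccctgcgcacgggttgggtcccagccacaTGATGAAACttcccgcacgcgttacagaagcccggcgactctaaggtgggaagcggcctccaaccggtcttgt
Nupr1: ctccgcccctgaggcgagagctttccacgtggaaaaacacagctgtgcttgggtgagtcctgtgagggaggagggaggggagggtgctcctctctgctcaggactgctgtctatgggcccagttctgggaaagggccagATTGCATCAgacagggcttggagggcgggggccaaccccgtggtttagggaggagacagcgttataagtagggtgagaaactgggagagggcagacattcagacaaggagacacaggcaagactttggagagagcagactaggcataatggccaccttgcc
Pycr1: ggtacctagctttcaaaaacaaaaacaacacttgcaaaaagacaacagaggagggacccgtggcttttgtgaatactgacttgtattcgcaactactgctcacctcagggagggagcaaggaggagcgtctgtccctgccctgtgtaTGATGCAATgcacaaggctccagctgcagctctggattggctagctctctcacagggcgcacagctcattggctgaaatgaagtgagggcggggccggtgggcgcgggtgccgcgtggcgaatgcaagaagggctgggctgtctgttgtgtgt
Aars: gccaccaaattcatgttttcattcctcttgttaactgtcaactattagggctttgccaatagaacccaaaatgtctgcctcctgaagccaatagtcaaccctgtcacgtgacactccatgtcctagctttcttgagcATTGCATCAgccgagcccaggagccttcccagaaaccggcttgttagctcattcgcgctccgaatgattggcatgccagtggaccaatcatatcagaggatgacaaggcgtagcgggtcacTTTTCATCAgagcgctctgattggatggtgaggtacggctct
The match began 23 bases before the start in Asns and further upstream in Nupr1 and Pycr1. Aars held 2 matches, 1 upstream and the other 8 bases after the start. In Nupr1 and Aars the matches read on the other strand. The element was found in 10 of 24 promoters of the stress response list (41.7%) and 5 of 13 of the tRNA synthetase list (38.5%), against 4.5% of all 27025 genes with a promoter in the table and 2.87% of the 11370 of those that were tested. Of the called stress response genes with a promoter, 3 of 4 held it (Gpt2 did not, and Eif4ebp1 had no entry), and of the called synthetase genes 2 of 3. None of 20 serine and one-carbon promoters, that of Phgdh included, held these letters in the window. The stress response list was compiled from known ATF4 targets, so its share of matches describes the list and is no result of the comparison.

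Cytosolic aminoacyl-tRNA synthetases, which load amino acids onto tRNA, held 3 called genes of 20, all higher at G5.5, with a list median of 0.11. Over all genes tested, 1.57% were called. Aars, for alanine, measured 72.2 and 68.6 CPM at G0 and 119.4 and 107.9 CPM at G5.5 (0.69, SE 0.16, adjusted p = 0.0270). Yars, for tyrosine, went from 41.4 and 34.9 to 69.2 and 59.9 CPM (0.76, SE 0.18, adjusted p = 0.0264), with an annotated gene on the other strand. Sars, for serine, went from 134.7 and 131.9 to 194 and 195 CPM (0.54, SE 0.14, adjusted p = 0.0470). Cars and Mars, for cysteine and methionine, differed by 0.80 and 0.68 without passing (adjusted p = 0.0815 and 0.0589), whereas Eprs, Lars and Gars differed by 0.03, -0.06 and 0.12. The calls on Aars and Sars were lost whichever library was left out (adjusted p from 0.0650 to 0.222 and from 0.110 to 0.278), that on Yars without G0 replicate 2 (0.283), G5.5 replicate 1 (0.179) and G5.5 replicate 2 (0.0752).

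Among 17 tested amino acid transporters 1 was called, against 1.57% over all genes tested, and it was lower. Slc1a5, the glutamine and neutral amino acid exchanger ASCT2, measured 0.762 and 1.37 CPM at G0 and 0.122 and 0.110 CPM at G5.5, that is 48 and 33 reads against 8 and 10 reads (-3.17, SE 0.76, adjusted p = 0.0282). Both G5.5 values were below all 33 other libraries, yet the call was lost without G0 replicate 2 (adjusted p = 0.211), G5.5 replicate 1 (0.149) and G5.5 replicate 2 (0.206). Few cells held Slc1a5 reads: 4.17% and 8.57% of cells at G0, with 3 cells in each library, and 5.88% and 6.17% at G5.5. With each cell thinned to 100000 reads, these shares were 2.78% and 5.71% at G0 and 1.18% and 1.23% at G5.5. The Slc1a5 call was also lost with limma on the deposited values and with the 2 groups alone. Slc7a5, the large neutral amino acid transporter, had a positive difference that did not pass, from 41.2 and 39.5 to 66.9 and 61.7 CPM (0.67, adjusted p = 0.0815), and its partner chain Slc3a2 differed by 0.41 (adjusted p = 0.214).

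The lipase gene Lpl fell at G5.5, and Hadh, for an enzyme of fatty acid oxidation, rose. Lpl (ENSMUSG00000015568, chromosome 8, 68880491 to 68907448, plus strand) measured 78.9 and 98.5 CPM at G0 and 33.2 CPM in both G5.5 libraries, a fall of 1.42 on the log2 scale (SE 0.23, adjusted p = 0.00131). At G5.5 Lpl was below 31 of the 33 other libraries, the exceptions being in G16.5 and P14L. Hadh, the short-chain 3-hydroxyacyl-CoA dehydrogenase that in β cells also restrains glutamate dehydrogenase, rose from 488 and 425 to 751 and 744 CPM (0.71, SE 0.11, adjusted p = 0.00106), above all 33 other libraries. The 29 tested genes of lipid uptake, storage and oxidation had a median of 0.07. Of the subunits of the trifunctional protein of long-chain oxidation, Hadha differed by 0.09 and Hadhb by 0.07. The calls on Lpl and Hadh held without any one of the 4 libraries, with the highest adjusted p at 0.0397 and 0.0487, each without G0 replicate 2.

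Fatty acid synthesis and acetyl-CoA supply held 1 called gene of 25, against 1.57% called over all genes tested. Acly (ENSMUSG00000020917, chromosome 11, 100476353 to 100528000, minus strand) measured 766 and 875 CPM at G0 and 615 and 593 CPM at G5.5 (-0.44, SE 0.11, adjusted p = 0.0363). G5.5 had the lowest group mean of the 16, overlapping only that of G6.5, with 573 and 657 CPM. The call was lost without G0 replicate 2 (adjusted p = 0.364), G5.5 replicate 1 (0.135) and G5.5 replicate 2 (0.217). Acss2, the enzyme that makes acetyl-CoA from acetate, measured 21.4 and 27.8 CPM at G0 and 32.7 and 33.6 CPM at G5.5 and did not pass (0.43, SE 0.19, adjusted p = 0.264). Fasn, fatty acid synthase, differed by -0.50 (adjusted p = 0.161) and the desaturase Scd2 by -0.75 (adjusted p = 0.130). In the sterol list 18 of 25 differences were negative, with a median of -0.25, and 8 members had an unadjusted p under 0.05. The synthase Hmgcs1 differed by -0.78 (adjusted p = 0.147) and the regulator Srebf2 by -0.37 (adjusted p = 0.323).

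**Figure D3:**
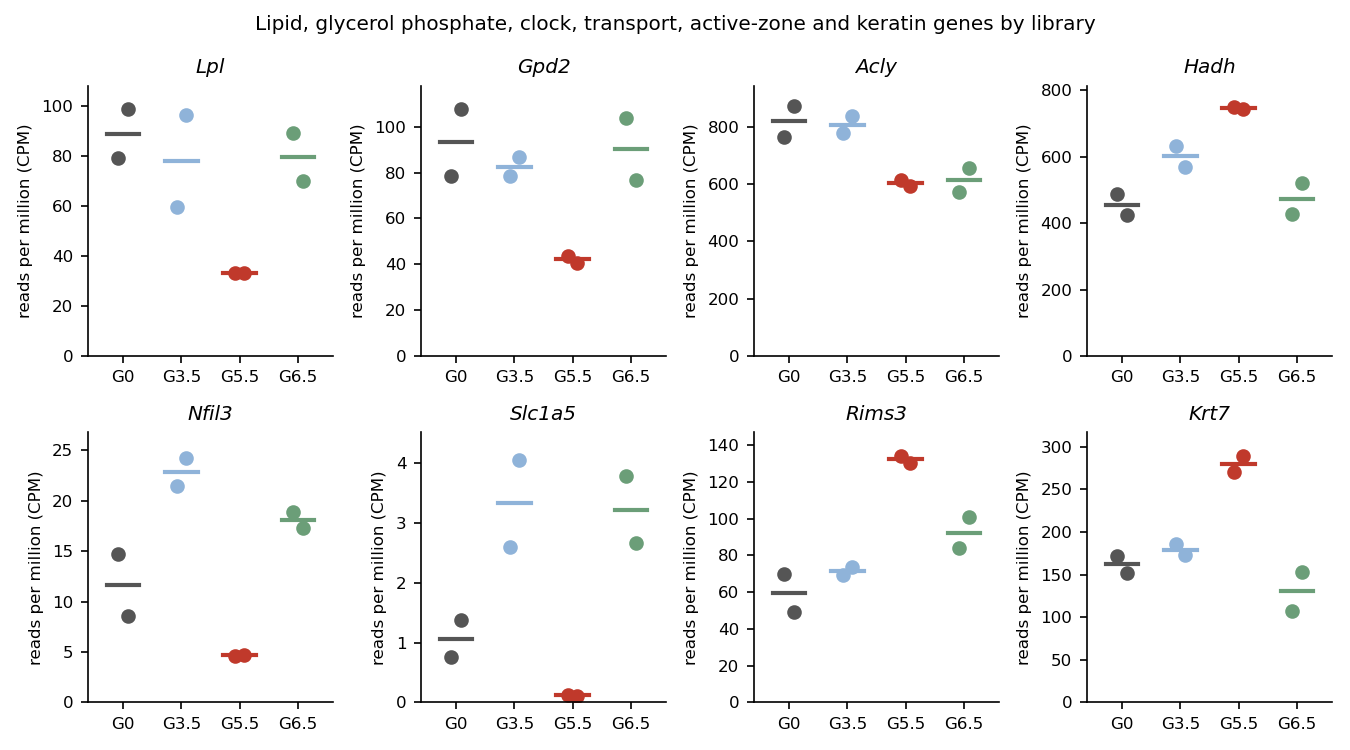
CPM (vertical axis) of 8 lipid, glycerol phosphate, clock, transport, active-zone and keratin genes in each library of G0, G3.5, G5.5 and G6.5; points are libraries and bars are group means. Both G5.5 points are the lowest for Lpl, Gpd2, Nfil3 and Slc1a5 and the highest for Hadh, Rims3 and Krt7; for Acly they lie beside those of G6.5.

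Among 24 β-cell identity genes, 2 were called, both higher, against 1.57% called over all genes tested, and the median of the list was 0.07. G6pc2, the islet glucose-6-phosphatase that opposes glucokinase, measured 1207 and 1164 CPM at G0 and 3162 and 3531 CPM at G5.5. Its rise of 1.50 (SE 0.15) had the smallest adjusted p of all genes, 2.72e-07, and stayed called without any one library. The adjoining gene Spc25, which does not overlap it in the annotation, was also called (1.00). Slc30a8, the zinc transporter of insulin granules, went from 691 and 551 to 848 and 960 CPM (0.54, SE 0.13, adjusted p = 0.0288), a call lost without G0 replicate 2 (0.389), G5.5 replicate 1 (0.0610) and G5.5 replicate 2 (0.239). Ins1 and Ins2 differed by -0.15 and -0.10, glucokinase by 0.05, and the transcription factors Pdx1 by -0.08 and Nkx6-1 by -0.18, none passing. Rims3, an active-zone protein of regulated secretion, rose from 69.9 and 48.9 to 134.2 and 130 CPM (1.15, SE 0.16, adjusted p = 0.000176) and stayed called without any one library.

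Of 20 tested lactogen-responsive and pregnancy genes, 3 were higher at G5.5, against 0.982% called higher over all genes tested. The median of the list was 0.62. Prlr, the prolactin receptor, measured 243 and 343 CPM at G0 and 472 and 500 CPM at G5.5 (0.73, SE 0.19, adjusted p = 0.0394); a second annotated gene overlaps it on the same strand. Neb, the giant muscle protein nebulin, went from 0.571 and 1.58 to 4.84 and 3.73 CPM (2.16, SE 0.48, adjusted p = 0.0187), and Matn2, a matrix protein, from 28.4 and 30.7 to 63.4 and 55.7 CPM (1.01, SE 0.26, adjusted p = 0.0363). Tph1, the serotonin-forming hydroxylase that is a hallmark of mouse β cells later in pregnancy, was at 0.841 and 0.541 CPM at G0 and at 0.657 and 1.39 CPM at G5.5 (0.51, SE 0.84, adjusted p = 0.856). Tph2 measured 0.444 and 1.25 against 2.99 and 3.38 CPM (2.07, adjusted p = 0.0840), and the prolactin target Cish 8.16 and 9.12 against 26.3 and 32.6 CPM (1.78, adjusted p = 0.197). Prlr and Matn2 lost their calls whichever library was left out, with adjusted p from 0.0528 to 0.266 and from 0.121 to 0.209, and Neb did without G0 replicate 1 (0.216) and G5.5 replicate 1 (0.0973).

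In the circadian clock list 3 of 21 genes passed, against 1.57% of all genes tested. Nfil3, a repressor of D-box genes, measured 14.7 and 8.58 CPM at G0 and 4.64 and 4.71 CPM at G5.5 (-1.33, SE 0.33, adjusted p = 0.0354). Npas2, a partner of BMAL1 in place of CLOCK, had 37 and 22 reads at G0 and 0 and 4 reads at G5.5 (adjusted p = 0.00939), and both G5.5 levels in CPM were below those of the other libraries. Arntl, the gene of BMAL1, showed 8.05 and 7.54 against 2.98 and 2.72 CPM without passing (-1.45, adjusted p = 0.0586). Cry2, a repressor of the BMAL1 complex, rose from 46.3 and 31.8 to 72.7 and 90.1 CPM (1.06, SE 0.26, adjusted p = 0.0295), while Per2, Nr1d1 and Dbp differed by -0.02, 0.40 and -0.47 (adjusted p = 1, 0.737 and 0.581). The labels do not state the time of day of sampling, and its part in these values was not tested. Nfil3 was lost without G0 replicate 1 (adjusted p = 0.262), G5.5 replicate 1 (0.164) and G5.5 replicate 2 (0.204), Npas2 without G0 replicate 2 (0.0629) and G5.5 replicate 1 (0.115), and Cry2 without G0 replicate 2 (0.364), G5.5 replicate 1 (0.0601) and G5.5 replicate 2 (0.219).

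The immediate-early and heat-shock list held 3 higher genes of 23, with a median of 0.52. Over all genes tested, 0.982% were called higher. Gadd45b, a stress and demethylation factor, measured 3.36 and 4.83 CPM at G0 and 25.9 and 28.6 CPM at G5.5 (2.76, SE 0.57, adjusted p = 0.00995). Rgs2, which shortens G-protein signalling, went from 22.01 and 33.4 to 96.8 and 206 CPM (2.46, SE 0.43, adjusted p = 0.00235), with the G5.5 replicates far apart. Dnajb1, a co-chaperone, went from 16.6 and 12.9 to 28.7 and 31.1 CPM (1.01, SE 0.25, adjusted p = 0.0306). Fos, Junb and Egr1 differed by 0.81, 0.62 and 0.06, none passing. Rgs2 was lost without G5.5 replicate 2 (0.0873), Gadd45b without G0 replicate 1 (0.0838), G0 replicate 2 (0.0947) and G5.5 replicate 2 (0.0574), and Dnajb1 without G0 replicate 2 (0.322), G5.5 replicate 1 (0.0937) and G5.5 replicate 2 (0.188).

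Other G0 libraries of the series gave a second set of levels. Wild-type G0 libraries of 2 other tables of the series, from the Acss2 and p300 knockout experiments, were put beside those of the time course as CPM with insulin reads left out; the tables were made separately, so no test was run across them. Of the 56 named genes called against G0, 30 had all 4 other G0 libraries on the G0 side of both G5.5 values. For the other 26, of which 17 had been called higher, at least 1 of these libraries reached or passed a G5.5 value. The same share over all genes tested was not computed, so these counts describe the named genes only. Gadd45b was at 8.01 and 11.4 CPM in the G0 libraries of the time course, at 58.9 and 64.3 CPM at G5.5, and at 35.3 to 81.2 CPM in the 4 other G0 libraries. Rgs2 was at 52.4 and 78.9 CPM, at 220 and 462 CPM, and at 709 to 1080 CPM. For both genes the other G0 libraries were thus far above the G0 libraries compared here and overlapped or exceeded G5.5. Tmem59l (6.69 and 8.58 CPM at G0, 48.2 and 57.2 at G5.5, 29.5 to 65.3 in the others) and G6pc2 (2750 and 2875, 7189 and 7926, 4100 to 7557) were likewise higher in the other G0 libraries, which overlapped G5.5. Klf11 reached 64.6 CPM in the other G0 libraries and was at 45.6 and 34.7 CPM at G5.5, and Dnajb1 at 70.97 to 109.1 CPM against 65.3 and 69.8 CPM, so that for both genes all other G0 libraries exceeded G5.5. For Prlr the other G0 libraries ran from 691 to 1797 CPM, around the G5.5 values of 1073 and 1124 CPM. The remaining genes called higher for which they overlapped G5.5 were Nupr1, Gpt2, Cry2, Cox6a2, Gem, Car8, Slc2a13, Derl3, Dedd2 and Tubb3. Those called lower were Ankrd28, Lrrfip1, Tdrkh, Gpd2, Relt, Pvrl1, Ofd1, Myo10 and Dynlt1c.

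The 4 called serine genes, the called stress response genes Eif4ebp1, Asns and Pycr1, the 3 called synthetase genes, Lpl, Hadh and Acly were among those with the other G0 libraries on the G0 side. Phgdh was at 14.2 to 46.6 CPM in them, with 22.3 and 17.9 CPM in the G0 libraries of the time course and 83.2 and 87.5 CPM at G5.5. Eif4ebp1 was at 33.4 to 48.3 CPM, against 140 and 144.3 CPM at G5.5. Lpl was at 226 to 381 CPM, against 75.6 and 74.5 CPM at G5.5. Hadh was at 1127 to 1231 CPM, against 1708 and 1669 CPM at G5.5. Nfil3 was at 46.2 to 72.01 CPM, against 10.6 CPM in both G5.5 libraries.

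**Figure D4:**
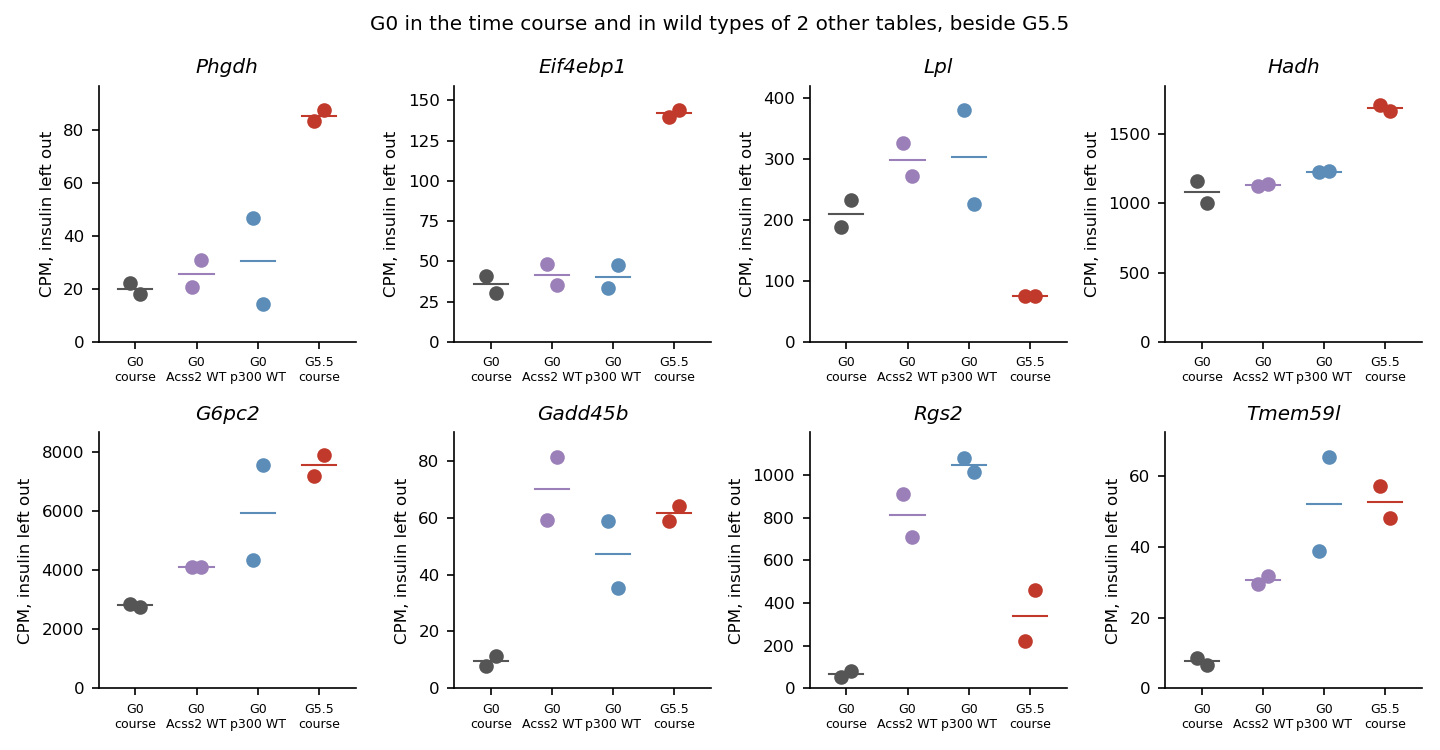
CPM with insulin reads left out (vertical axis) of 8 genes in G0 and G5.5 libraries of the time course and in wild-type G0 libraries of the Acss2 and p300 tables; points are libraries and bars are means. For Phgdh, Eif4ebp1, Lpl and Hadh the other G0 points stay clear of G5.5; for Gadd45b, Tmem59l and G6pc2 they overlap it, and for Rgs2 they lie above it.

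Klf11, a glucose-induced transcription factor, was the 1 call of 15 in its list, against 1.57% called over all genes tested. It went from 9.63 and 4.83 to 20.0 and 15.5 CPM (1.27, SE 0.28, adjusted p = 0.0185). Txnip, the best-known glucose-induced gene of β cells, did not pass (98.4 and 44.8 against 181 and 186 CPM, 1.35, adjusted p = 0.0796). Ccnd3, a D-type cyclin, was the 1 call of 25 cell cycle genes, against the same 1.57%. It went from 12.7 and 15.4 to 23.8 and 29.3 CPM (0.92, SE 0.20, adjusted p = 0.0183), with the gene Bysl on the other strand. G0 had the lowest mean of the 16 groups for Klf11 and Ccnd3. The proliferation marker Mki67 measured 0.254 and 25.7 CPM at G0 and 12.6 and 0.022 CPM at G5.5. For Mki67 each group thus held 1 library with and 1 nearly without it. Krt7, a keratin of simple epithelia, rose from 172 and 151.9 to 270 and 290 CPM (0.79, SE 0.18, adjusted p = 0.0198), above all 33 other libraries. It made up most of the ductal marker sum of 156.5 to 308 CPM, while Sox9 and Cftr were at or near 0. Of the 7 ductal markers, 6 had positive differences (85.7%, against 48.4% over all genes tested), with a median of 0.79. By edgeR 2 of them were higher at an unadjusted p under 0.05, and only Krt7 was called. Klf11 was lost without G0 replicate 2 (0.316) and G5.5 replicate 1 (0.142), Ccnd3 without G0 replicate 1 (0.106), G0 replicate 2 (0.0720) and G5.5 replicate 2 (0.199), and Krt7 without G0 replicate 2 (0.222), G5.5 replicate 1 (0.0648) and G5.5 replicate 2 (0.148).

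The largest rise among genes with at least 10 CPM was that of Tmem59l, a membrane protein gene of neuroendocrine tissue, from 3.602 and 2.83 to 25.1 and 21.5 CPM (2.84, SE 0.42, adjusted p = 0.000533). It was followed, beside genes already given, by Gem (2.02), a small GTPase that restrains calcium channels, Cox6a2 (1.71), a subunit of cytochrome oxidase, Car8 (1.63), a partner of the IP3 receptor, and Slc2a13 (1.55), a myo-inositol transporter. Then came Uchl1 (1.36), a ubiquitin hydrolase, Derl3 (1.35), a factor of ER-associated degradation, Dedd2 (1.32), Tubb3 (1.30), a neuronal tubulin, and Enpp2 (1.29), the enzyme autotaxin. Cox6a2 has a gene on the other strand and Tubb3 one on the same strand. G0 had the lowest mean of the 16 groups for each of the 10 genes from Tmem59l to Enpp2. With limma on the deposited values, Gem, Slc2a13, Uchl1, Derl3 and Dedd2 of them were not called. Of these 10 genes, Tmem59l, Car8, Slc2a13 and Enpp2 stayed called without any one library, and Gem and Derl3 were lost whichever was left out (adjusted p from 0.0522 to 0.158 and from 0.124 to 0.226). Cox6a2 was lost without G0 replicate 2 (0.0630), Uchl1 without G0 replicate 2 (0.396), G5.5 replicate 1 (0.0531) and G5.5 replicate 2 (0.206), Dedd2 without G0 replicate 2 (0.243) and G5.5 replicate 1 (0.164), and Tubb3 without G0 replicate 2 (0.236) and G5.5 replicate 2 (0.110).

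Among genes with at least 10 CPM, and beside Nfil3 and Lpl, the largest falls were those of 2610018G03Rik (-1.49), Ankrd28 (-1.32), the nucleoporin gene Nup54 (-1.30), Lrrfip1 (-1.22) and Tdrkh (-1.15). Gpd2, the mitochondrial glycerol-3-phosphate dehydrogenase that carries cytosolic electrons to the respiratory chain, went from 78.7 and 107.8 to 43.7 and 40.6 CPM (-1.14, SE 0.22, adjusted p = 0.00567). Relt (-1.13), Pvrl1 (-1.12), the pentose phosphate enzyme Rpia (-1.12), the double-stranded RNA kinase Eif2ak2 (-1.10), Ofd1 (-1.10), the unconventional myosin Myo10 (-1.07) and Dynlt1c (-1.07) completed the list. Dynlt1c belongs to a cluster of near-identical copies whose reads cannot be assigned with certainty, and genes lie on the other strand of Tdrkh and Ofd1. For 2610018G03Rik the G0 replicates differed most, at 6.32 and 23.4 CPM. Of these 13 genes, Myo10 stayed called without any one library; without G0 replicate 2 the adjusted p of 2610018G03Rik, Ankrd28, Tdrkh, Gpd2, Relt, Pvrl1, Rpia, Eif2ak2 and Ofd1 was 0.0637 to 0.844. Without G0 replicate 1, Nup54, Lrrfip1, Tdrkh and Pvrl1 were lost (0.0707 to 0.192). Without G5.5 replicate 1, 8 of them were lost, namely 2610018G03Rik, Ankrd28, Nup54, Lrrfip1, Tdrkh, Relt, Pvrl1 and Eif2ak2 (0.0528 to 0.301), and without G5.5 replicate 2, all but Tdrkh and Myo10 were (0.0752 to 0.266).

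In 10 of the 24 lists no gene passed. They cover oxidative phosphorylation, the unfolded protein response, protein entry into the ER, JAK-STAT signalling, steroid hormone response, exocytosis and excitability, interferon response and antigen presentation, acetylation factors, serotonin synthesis and signalling, and genes kept low in mature β cells. Of their 201 tested entries edgeR called 0 and 44 (21.9%) had an unadjusted p under 0.05, against 2225 of all 15373 genes; DESeq2 called 9 and limma on the deposited values called 4. The 24 respiratory chain genes had a median of -0.03, and the 22 unfolded protein response genes a median of 0.20. The ER chaperone Hspa5 measured 721 and 816 CPM at G0 and 661 and 690 CPM at G5.5 (-0.19, adjusted p = 0.690), and Herpud1 170 and 178 against 273 and 239 CPM (0.56, adjusted p = 0.127). Of the 22 unfolded protein response genes, 17 had positive differences (77.3%, against 48.4% over all genes tested). By edgeR 3 of them had an unadjusted p under 0.05, all higher, and DESeq2 called 1 higher. Any part of ER stress in the integrated stress response calls was not tested.

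Levels per cell were spread widely within every library. Phgdh had a median of 0 CPM per cell in both G0 libraries and of 4.54 and 12.2 CPM at G5.5, and its upper quartile moved from 17.98 and 10.1 to 52.9 and 64.7 CPM. For Nupr1 the medians were alike, 5.03 and 10.1 at G0 and 6.09 and 10.99 CPM at G5.5, while the upper quartile was 32.7 and 55.1 at G0 and 86.02 and 218 CPM at G5.5. The summed difference in Nupr1 thus lay in the upper part of the cells. Eif4ebp1 had medians of 6.81 and 4.98 CPM at G0 and 37.4 and 54.3 CPM at G5.5. For Lpl the median was 24.99 and 9.16 CPM at G5.5, against 47.95 and 67.7 CPM at G0. G6pc2 and Hadh had reads in every cell, with lower quartiles at G5.5 (1871 and 2260 CPM for G6pc2, 522 and 554 CPM for Hadh) above the upper quartiles at G0 for G6pc2 (1479 and 1302 CPM) and near them for Hadh (560 and 464 CPM).

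Against the stages on either side, G5.5 was tested directly. Between G5.5 and G3.5, 9 genes (0.0585%) passed: Rims3, Galnt18 and Slc2a13 (3 genes, 0.0195%) were higher and Npas2, Slc1a5, Nfil3, Nup54, Lpl and Rhobtb1 (6 genes, 0.039%) lower at G5.5. Each of the 9 was also called in the same direction between G5.5 and G0, a comparison that shares the G5.5 libraries. Without G5.5 replicate 1, 1 gene was called between G5.5 and G3.5, and without G5.5 replicate 2 there were 3. Rims3 and Nup54 lost this call whichever of the 4 libraries was left out, Lpl in 3 of the 4 fits, Npas2 in 1 and the other 5 genes in 2 each, and with limma on the deposited values only Galnt18, Nfil3 and Rhobtb1 of the 9 passed. Phgdh was at 18.97 and 20.6 CPM at G3.5; its difference from G5.5 did not pass (0.93, adjusted p = 0.206), and nor did that of Hadh (0.31, adjusted p = 0.403). No member of the serine or stress response lists passed between G3.5 and G5.5 by edgeR.

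Between G6.5 and G5.5, 280 genes (1.82%) passed, 164 (1.07%) of them higher and the others (0.755%) lower at G6.5; with limma on the deposited values the split was 440 higher and 71 lower, 86.1% against 58.6% higher. The G6.5 libraries stood apart from those at G5.5. In replicate 1 the δ-cell hormone gene Sst was at 3753 CPM, against 220 and 218 CPM at G5.5, and 4 cells had over 5% of their reads in other hormones. In replicate 2 insulin made up 46.3% of reads, and hepatocyte markers summed to 70.4 CPM, against 5.33 and 14.7 CPM at G5.5. Without the hormone-rich cells 305 genes were called and without G6.5 replicate 2 there were 241; the part of these features in single calls was not tested. Without G5.5 replicate 2, 16 genes were called, without G5.5 replicate 1, 78, and without G6.5 replicate 1, 54. Of the 242 genes called between G5.5 and G0, 91 were lower at G5.5 and the others higher. Of the higher genes, 27 were called lower at G6.5 than at G5.5 and 2 were higher still, Prlr and Neb. Of the 91 lower genes, 19 were called higher at G6.5 than at G5.5 and 0 were lower. The genes were picked for their difference from G0, and both comparisons use the same G5.5 libraries. A deviation of those libraries alone would push the counts the same way, so no return toward G0 is concluded from this split. Phgdh fell to a mean of 11.53 CPM (SD 3.49, n = 2; -1.71, adjusted p = 0.000601), and Lpl rose to 89.1 and 69.9 CPM (1.26, adjusted p = 0.00365). In the serine list Phgdh, Psph, Shmt2 and Ahcy were lower at G6.5, and in the stress response list Eif4ebp1, Nupr1, Pck2 and Sesn2. Aldh1l1, a cytosolic folate dehydrogenase, had 0 reads in both G5.5 libraries and 12.2 and 13.2 CPM at G6.5 (adjusted p = 0.0139). In the sterol list Hmgcs1, Mvd, Cyp51, Msmo1 and Stard4 were higher at G6.5, and in the clock list Nfil3, Npas2 and Arntl. Prlr rose further, to 1082 and 1071 CPM (1.15, adjusted p = 0.00161), with 9 of 20 lactogen-responsive genes higher, Tph1 among them, and 5 of 22 unfolded protein response genes were higher. Of the genes named here for G6.5 against G5.5, Phgdh and Prlr stayed called whichever of the 4 libraries was left out, with adjusted p up to 0.0353 and 0.0391, whereas Neb, Hmgcs1 and Cyp51 lost their call in all 4 fits. Nfil3 and Npas2 lost it in 1 fit, Lpl, Psph, Ahcy, Nupr1, Mvd and Aldh1l1 in 2, and Shmt2, Eif4ebp1, Pck2, Sesn2, Msmo1, Stard4, Arntl and Tph1 in 3.

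Values against G0 on either side of G5.5 share the G0 libraries and are given side by side only. Phgdh differed from G0 by 1.22 at G3.5, 2.15 at G5.5 and 0.44 at G6.5, Lpl by -0.18, -1.42 and -0.16, and Hadh by 0.40, 0.71 and 0.06. Acly differed by -0.02, -0.44 and -0.42, G6pc2 by 1.22, 1.50 and 1.41, and Prlr by 1.07, 0.73 and 1.88. Over the whole course, G5.5 had the highest mean of 16 groups for Phgdh, Psph, Mthfd2, Eif4ebp1, Hadh, Slc30a8, Krt7, Rims3, Cry2 and G6pc2 and the lowest for Lpl, Acly, Nfil3, Npas2 and Slc1a5. No other group overlapped G5.5 for Phgdh, Psph, Hadh, Krt7, Npas2 and Slc1a5. Counted from the highest mean, G5.5 ranked 2 of 16 groups for Asns and Shmt2, 8 for Gpt2, 10 for Pycr1 and 13 for Nupr1 and Atf4. For G6pc2 the range at G5.5 overlapped those of G6.5, G8.5, G12.5, G14.5 and G16.5, so that its order among them is not settled by the spread.

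**Figure D5:**
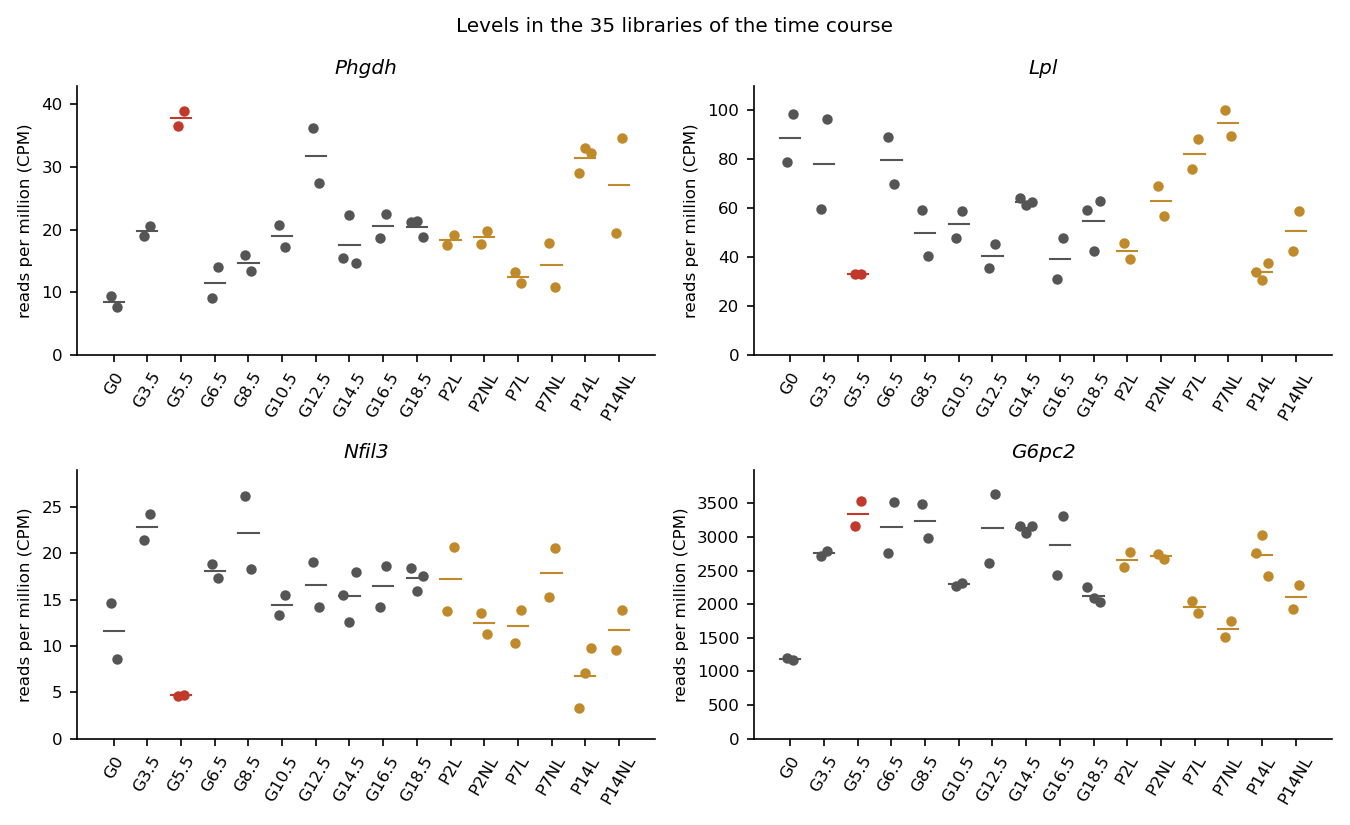
CPM (vertical axis) of Phgdh, Lpl, Nfil3 and G6pc2 in the 35 libraries of the time course, by group in order of time; points are libraries, bars are group means, red is G5.5 and ochre marks groups after delivery. Phgdh is highest and Nfil3 and Lpl are lowest in mean at G5.5, while G6pc2 stays above both G0 libraries in every later group.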

How the data were processed

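The authors deposited a read count per gene and cell for the time course, and a normalized score per gene and cell; in the files these deposited scores are reads divided by gene length, scaled so that all genes but Ins1 and Ins2 sum to 100000 in a cell. Tools named in the submitters' processing notes are featureCounts 2.0.1, Trimmomatic 0.39 and Cell Ranger 3.1.0, with GRCm38 (mm10) as the build; the sources used here do not state the aligner, the counting strand or any removal of duplicate reads. Counts were summed over the cells of each of 35 libraries, scaled with TMM, filtered with filterByExpr (15373 of 21767 genes kept) and fitted in 1 model with edgeR 4.0.16 (glmQLFit, glmQLFTest) under R 4.3.3. A gene was called at a Benjamini-Hochberg adjusted p under 0.05 over all genes tested, and "rose", "fell", "higher" and "lower" of a test refer to such calls; log2 fold changes and standard errors (SE) come from this fit. CPM are counts scaled with TMM library sizes, those of summed markers with plain sizes. With 2 libraries a group, the spread is estimated over all groups, and a lone library left after leaving one out is assumed to vary like the rest. The labels call the replicates biological; p-values measure the spread between them, and a read here is not a separate molecule. All 3481 cell columns are distinct, no doublet caller was run and no cell was removed in the main fit.

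The members, gene lists and tests were chosen with earlier results of these data known. Named genes are Phgdh, Lpl, Acly, Acss2, Prlr, Tph1, Tph2, Ins1 and Ins2; the 15 highest and 15 lowest called fold changes among genes without overlap whose mean CPM is 10 or more; each called list member; and the 6 highest and 6 lowest in each comparison with G3.5 and G6.5. Results for some genes of these lists are not reported here. Other genes named as list members were picked after their values were seen. Samples of an incomplete Stat3 table and 2 droplet libraries were not used here. Gene positions are from GENCODE M21 (GRCm38), promoters from RefSeq. Alternatives were RLE scaling, DESeq2 1.42.0, limma 3.58.1 on the mean over cells of log2(score + 1), no filter, the 2 groups alone, insulin genes, hormone-rich or shallow cells left out, single libraries left out and a replicate block. The fit was tested on simulated data.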

Additional observations from a re-analysis of the deposited data

Results flagged for a closer look

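For the named genes given here, a direct test between G5.5 and a neighbouring stage passed beside the call against G0, so that the difference from G0 was not the same at both stages. Between G5.5 and G3.5 the log2 fold changes were -1.23 for Lpl, -2.29 for Nfil3, -1.51 for Nup54 and -1.13 for Rhobtb1 on the lower side. They were 1.41 for Galnt18, an O-glycosylation enzyme, 0.89 for Rims3 and 1.50 for Slc2a13 on the higher side. For Slc1a5 (-4.83) and Npas2 (-6.57) the fitted values rest on 18 and 4 reads at G5.5 and their size is uncertain. Rims3 and Nup54 lost the call whichever library was left out, Lpl in 3 of 4 fits, Galnt18, Slc2a13, Slc1a5, Nfil3 and Rhobtb1 in 2 and Npas2 in 1. With limma on the deposited values Lpl, Slc2a13, Nup54, Slc1a5, Npas2 and Rims3 were not called.

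Between G6.5 and G5.5, genes higher at G5.5 than at G0 came down: Phgdh by -1.71, Psph by -1.40, Shmt2 by -1.10, Eif4ebp1 by -1.55, Nupr1 by -1.26, Hadh by -0.66, Slc30a8 by -0.53, Krt7 by -1.10, Galnt18 by -0.83, Uchl1 by -1.29 and Tmem59l by -1.83. Genes lower at G5.5 came up: Lpl by 1.26, Gpd2 by 1.10, Dynlt1c by 0.78, Nfil3 by 1.95, Rhobtb1 by 1.03, Slc1a5 by 4.78 and Npas2 by 5.32. Prlr (1.15) and Neb (1.57) were higher at G6.5 than at G5.5. Neb, Tmem59l, Uchl1, Slc30a8, Galnt18 and Dynlt1c lost this call whichever of the 4 libraries was left out, Shmt2, Eif4ebp1 and Gpd2 in 3 of the 4 fits, Psph, Nupr1 and Lpl in 2 and Hadh, Krt7, Nfil3, Rhobtb1, Slc1a5 and Npas2 in 1. Only Phgdh and Prlr of these genes kept it in all 4. With limma Phgdh (adjusted p = 0.0503), Shmt2, Eif4ebp1, Nupr1, Slc30a8, Galnt18, Uchl1, Dynlt1c, Npas2 and Neb were not called. These tests share the G5.5 libraries with the comparison against G0, so a deviation of those libraries would move both.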

How the results depend on the processing

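For G5.5 against G0, where 242 genes were called, there were 549 without the filter on low counts, 413 with the 2 groups alone, 579 with DESeq2 and 474 with limma on the deposited values, and 40 to 301 with single libraries left out. For G5.5 against G3.5, where 9 genes or 0.0585% of those tested were called, these shares were 0.842% of 18165 genes without the filter, 0.462% (71 genes) with the 2 groups alone, 0.519% (75 genes) with DESeq2 and 0.0065% to 0.052% (1 to 8 genes) with single libraries left out. For G6.5 against G5.5, where 280 were called, they were 642 without the filter, 585 with DESeq2, 511 with limma and 16 to 241 with single libraries left out. The 4 serine genes called higher became 1 with limma and 1 to 3 with single libraries left out, and the 5 stress response genes 1 and 0 to 3. Replicate numbers share only a number: deviations of same-numbered libraries correlated at -0.088 between G0 and G5.5. With a replicate block in the fit of the 2 groups alone, 130 genes were called against G0 and 80 (0.52%) against G3.5, and with the block over all libraries 230 against G0. No named gene changed direction while called under any of these settings. Of 56 named genes called against G0, 20 to 40 lost their call with a single library left out and 30 with limma. With 2 libraries a group and 35 cells in G0 replicate 2, small differences may have been missed, though that of Acly (-0.44) passed. Low genes such as Npas2 and Slc1a5 were called on few reads. The causes of these shifts were not tested.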
